A study of Rattus norvegicus with 11 samples.

Results

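Adenylyl cyclases are the enzymes that make cyclic AMP, and the 6 genes Adcy3, Adcy4, Adcy5, Adcy6, Adcy7 and Adcy9 were examined here in ventricular myocytes of female and male rats. They were found by matching gene symbols in a table of 17257 genes. Rows were found for 5 of the 6, all 5 with a mean above 0, and Adcy9 was not analysed here. The 4 further cyclase rows, Adcy1, Adcy2, Adcy8 and Adcy10, are given beside them. The females gave 5 libraries and the males gave 6, each a biological replicate per the labels. All animals were wild-type Sprague Dawley rats, 3 to 4 months old and untreated. Hearts were perfused on a Langendorff apparatus, and the isolated myocytes were kept for 45 minutes in spring horn media on dishes and then frozen. The comparison asks which genes differ between the sexes in these contractile cells.

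The membrane-bound cyclases turn ATP into cyclic AMP when a receptor such as the beta-adrenergic receptor releases the stimulatory G protein alpha subunit. Cyclic AMP then activates protein kinase A, which phosphorylates calcium-handling and contractile proteins and so raises the rate and force of the heartbeat. The isoforms differ in what else they respond to. Adcy5 and Adcy6, regarded as the main isoforms of the cardiac myocyte, are inhibited by calcium and by inhibitory G proteins, whereas Adcy1, Adcy3 and Adcy8 respond to calmodulin. Adcy2, Adcy4 and Adcy7 can be stimulated by G protein beta-gamma subunits. Adcy10 is a soluble enzyme activated by bicarbonate.

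The table gives mean normalized read counts for each sex, which are gene counts divided by a size factor per library, and no value per library. Sex labels were checked with the Y-linked gene Eif2s3y, whose mean was 0.578 in females and 2215 in males per the authors' deposited table. The digits of the means gave back the size factors and the reads of 3726 genes with low means. The size factors ran from 0.972 to 1.14 in females and from 0.811 to 1.17 in males, without a difference between the sexes (exact permutation p = 0.442, two-sided). In the 3726 genes the libraries held from 20098 to 28856 reads. The defining myocyte markers were present at high counts, with Myh6 at 1330868 in females and 831771 in males by the authors' deposited table.

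Adcy5 and Adcy6 held nearly all reads of the cyclases measured here, in both sexes. Adcy9, not analysed here, is in none of the shares given. Of the summed means of the 5 measured members, Adcy5 took 67.7% in females and 69.0% in males, and 68.3% over all libraries. Adcy6 took 30.7% in females and 29.4% in males, and 30.1% over all libraries. Adcy4 followed with 1.30% in females and 1.29% in males. Adcy3 took 0.165% in females and 0.169% in males, and Adcy7 took 0.0836% in females and 0.160% in males. These are shares of reads, not divided by transcript length, so they do not rank the isoforms by number of molecules. They come from group means and carry no spread between animals.

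**Figure D1:**
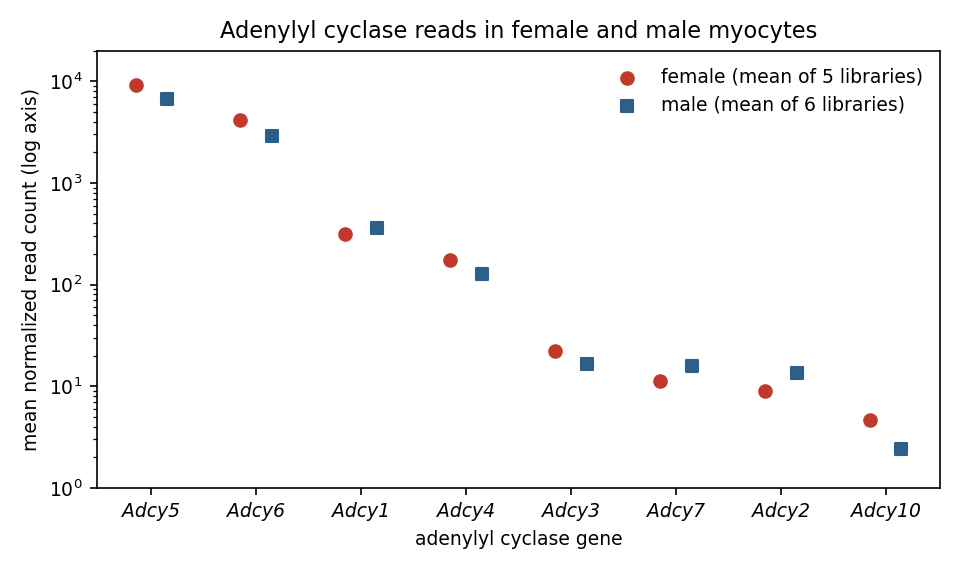
Mean normalized read count (log axis) of 8 adenylyl cyclase genes, ordered by their mean over all libraries, with circles for females (5 libraries) and squares for males (6 libraries). Adcy5 and Adcy6 stand above 2890 in both sexes and every other gene lies below 364; Adcy8, with 2 reads in all, is not drawn.

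Both abundant isoforms were higher in females, and these were the only members that passed an adjusted p of 0.05. Adcy6 had a mean of 4142 in females and 2890 in males per the authors' deposited table. Its fold was 1.43 (log2 fold change 0.52), with an adjusted p of 0.0061 by the authors' deposited table (DESeq). Adcy5 had a mean of 9137 in females and 6774 in males per the authors' deposited table. Its fold was 1.35 (log2 fold change 0.43), with an adjusted p of 0.0196 by the authors' deposited table (DESeq). In RNA from a whole cell preparation, fewer cells of a type and less RNA per cell cannot be told apart.

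Across all 13346 genes with a mean above 0, 14.5% passed the same threshold, 6.71% higher and 7.76% lower in females. Among 2095 genes whose mean was 2000 or more, where Adcy5 and Adcy6 lie, 12.9% were higher and 15.6% lower. The 2 of 5 members called stand beside these shares, in a set too small for the share to say more. The sizes of change were modest. The median fold of genes called higher in females was 1.51, above that of both isoforms. Of the 896 genes called higher, 33.0% had a smaller fold than Adcy6 and 11.8% had a smaller fold than Adcy5. By p-value (DESeq), 4.19% of all genes had a smaller p than Adcy6, and 8.55% had a smaller p than Adcy5. This ranking takes in genes of every mean, and a rank among genes of like mean was not computed.

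No SD between animals can be given for these isoforms, because reads per library could not be recovered at means of this size. An SE was therefore approximated from each deposited p-value, read as a two-sided normal test of the log2 fold change. Among the 899 genes with recovered libraries and a mean of at least 10, 468 had an unadjusted p under 0.5, and in these the SE was a median of 1.06 times the SE computed over the libraries. Adcy4, Adcy5 and Adcy6, whose reads were not recovered, lie outside that check, so it does not cover means of their size. Adcy3 and Adcy7 had larger p-values and also lie outside it. For Adcy3 the SE from p was 0.83, against 0.58 by limma on log2 of the count plus 1. The approximate SE was 0.14 for Adcy6 and 0.14 for Adcy5. The resulting 95% interval of the fold ran from 1.18 to 1.74 for Adcy6 and from 1.12 to 1.63 for Adcy5. The 2 intervals overlap over most of their length, and whether the folds of these isoforms differ was not tested.

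The ratio between the 2 main isoforms is given from group means and was not tested. Adcy5 had 2.21 times the reads of Adcy6 in females and 2.34 times in males. Over the 5 measured members, the share of Adcy5 was 1.21 percentage points lower in females and that of Adcy6 was 1.28 points higher. Over all 9 cyclase rows, Adcy1 included, the share of Adcy5 was 0.26 points lower and that of Adcy6 was 1.65 points higher. Summed over the 5 measured members, the means came to 13487 in females and 9822 in males, a ratio of 1.37. Adcy5 and Adcy6 alone summed to 13279 in females and 9664 in males, and the other 3 members to 208 in females and 159 in males.

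**Figure D2:**
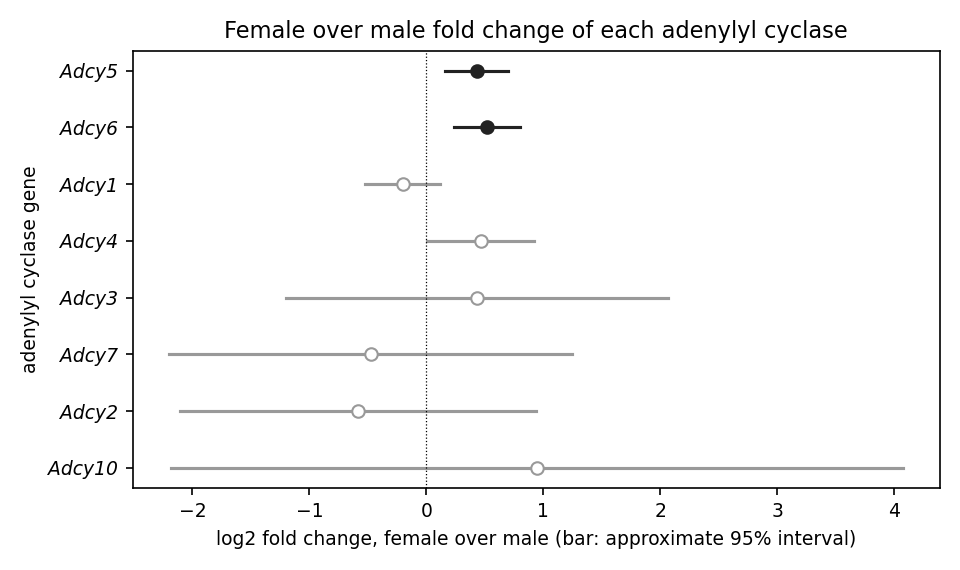
Log2 fold change, female over male, of 8 adenylyl cyclase genes from the authors' deposited table, with bars for the approximate 95% interval derived from the deposited p-value. Filled points passed an adjusted p of 0.05, which Adcy5 (0.43) and Adcy6 (0.52) did; the intervals of Adcy3, Adcy7, Adcy2 and Adcy10 are wide and span 0.

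The promoter of Adcy5 is shown beside that of Adcy4, to display how the letters around their start sites differ. Adcy5 gave the largest share of reads among the measured members, and Adcy4 is a member that did not pass the threshold. RefSeq promoter entries of the rat assembly GRCr8 were matched for 7 of the 10 cyclase genes looked up. Each runs from 250 bases before the gene's start to 50 after it, 5′ to 3′ on the gene's strand. Capitals mark the GC box GGGCGG on either strand, the binding sequence of Sp1-type factors. The Adcy5 window is chr11:79123294-79123593 and the Adcy4 window is chr15:33251977-33252276, both on the minus strand of GRCr8.
Adcy5: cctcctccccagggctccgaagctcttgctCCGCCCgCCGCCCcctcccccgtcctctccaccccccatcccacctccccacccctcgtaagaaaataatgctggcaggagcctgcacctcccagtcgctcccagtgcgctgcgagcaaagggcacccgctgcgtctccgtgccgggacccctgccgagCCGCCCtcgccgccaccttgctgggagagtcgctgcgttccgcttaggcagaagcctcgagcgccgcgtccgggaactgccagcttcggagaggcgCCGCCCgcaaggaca
Adcy4: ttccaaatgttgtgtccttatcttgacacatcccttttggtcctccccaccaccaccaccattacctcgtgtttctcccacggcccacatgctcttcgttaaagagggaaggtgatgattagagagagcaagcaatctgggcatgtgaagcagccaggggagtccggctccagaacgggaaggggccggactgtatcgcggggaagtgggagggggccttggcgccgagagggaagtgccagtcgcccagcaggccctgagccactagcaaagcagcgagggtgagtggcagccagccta

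The Adcy5 window held 4 GC boxes and 70.7% G and C, more than 92.6% of the 33469 promoters of the same length. The Adcy4 window held 0 GC boxes and 59.0% G and C. The window of Adcy1 held 7 boxes and that of Adcy2 held 3, neither of them called. Those of Adcy7 and Adcy10, also not called, held 0, as did that of Adcy9, which has no call here. Adcy6, the other called isoform, was not among the entries matched, so Adcy5 was the only called gene with a window. Whether boxes go with the calls was not tested. A GC box was present in 33.1% of all such promoters. Neither window held TGACGTCA, the cyclic AMP response element, which 1.83% of promoters held, nor TATAAA, which 14.2% held, on either strand. Overlapping matches were counted apart.

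Among the isoforms that beta-gamma subunits can stimulate, Adcy4 and Adcy7 did not pass the threshold. Adcy4 had a mean of 175 in females and 127 in males per the authors' deposited table. Its fold of 1.38 was between those of Adcy5 and Adcy6, but its unadjusted p was 0.0475 and its adjusted p 0.176 by the authors' deposited table (DESeq). The approximate 95% interval of its fold ran from 1.004 to 1.90. Reads per library were not recovered for Adcy4.

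Adcy4 is known from endothelial cells, and endothelial markers were present in these preparations. All 12 markers listed were measured, with a summed mean of 27849 in females and 25466 in males, a ratio of 1.09. Of the 12, 3 were called higher and 1 lower in females, beside 6.71% higher and 7.76% lower of all genes. The median log2 fold change of the 12 was 0.17, and 10 of them had a positive value. Pecam1, the endothelial adhesion molecule, had means of 4902 in females and 4889 in males, and Cdh5, the endothelial cadherin, 3961 in females and 4066 in males, per the authors' deposited table. The 3 called higher were Eng, Vwf and Egfl7, with folds of 1.66, 1.59 and 1.51, and the 1 called lower was Emcn, with 0.74, by the authors' deposited table. The part of these cells in the Adcy4 values was not tested.

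Adcy7, known from blood cells and macrophages, was counted weakly, and its male libraries were spread more widely than its female libraries. The difference in spread was not tested, and the female libraries held only 9 to 14 reads each. The normalized read counts of the 5 female libraries were 8.61, 11.3, 11.8, 12.3 and 12.3. The 6 male libraries ran from 1.03 to 37.8 with a median of 13.1. All 5 female libraries lay within the male range, and 0 male libraries lay within the female range: 3 were below it and 3 above it. The mean was 11.3 ± 1.55 in females (SD, n = 5) and 15.7 ± 14.3 in males (SD, n = 6), with an exact permutation p = 0.550 (two-sided). On log2 of the count plus 1 the female mean was higher by 0.17, so the direction of the difference depends on the scale. limma gave an adjusted p of 0.932 over 899 genes, of which it called 1, or 0.111%. The deposited p-values called 2.11% of the same genes, so few of these 899 genes passed either test. They hold only genes with a mean up to 100 in females and up to 30 in males, not all weakly counted genes.

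Markers of macrophages and leukocytes were also present. The 12 measured markers summed to 1123 in females and 1446 in males, a ratio of 0.777, and 1 of the 12 was called lower in females and 0 higher, with 0 higher also at an unadjusted p under 0.05 (DESeq). Of all genes, 6.71% were called higher and 7.76% lower. The median log2 fold change of the 12 markers was -0.30. Lyz2, the lysozyme of myeloid cells, had means of 421 in females and 529 in males, and Csf1r, the receptor for macrophage growth factor, 182 in females and 223 in males, by the authors' deposited table. Their part in the Adcy7 values was not tested.

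Adcy3, a calmodulin-responsive isoform best known from olfactory neurons, was also counted weakly. The female libraries had 10.6, 15.4, 22.6, 23.7 and 39.2 normalized reads. The male libraries ran from 2.44 to 36.6 with a median of 14.5. The sexes overlapped, with 4 of 5 female libraries inside the male range and the remaining one above it. The mean was 22.3 ± 10.9 in females (SD, n = 5) and 16.6 ± 11.6 in males (SD, n = 6), with an exact permutation p = 0.403 (two-sided). limma gave an adjusted p of 0.729, with the same 0.111% of genes called. Within each sex the highest library held several times the reads of the lowest. The fold of the means was 1.35, and the approximate 95% interval of its fold ran from 0.434 to 4.18. The fold of Adcy5 lies well inside this interval. The libraries held 115 female and 105 male reads of Adcy3 in all, and the coefficient of variation between libraries was 48.8% in females and 69.8% in males.

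**Figure D3:**
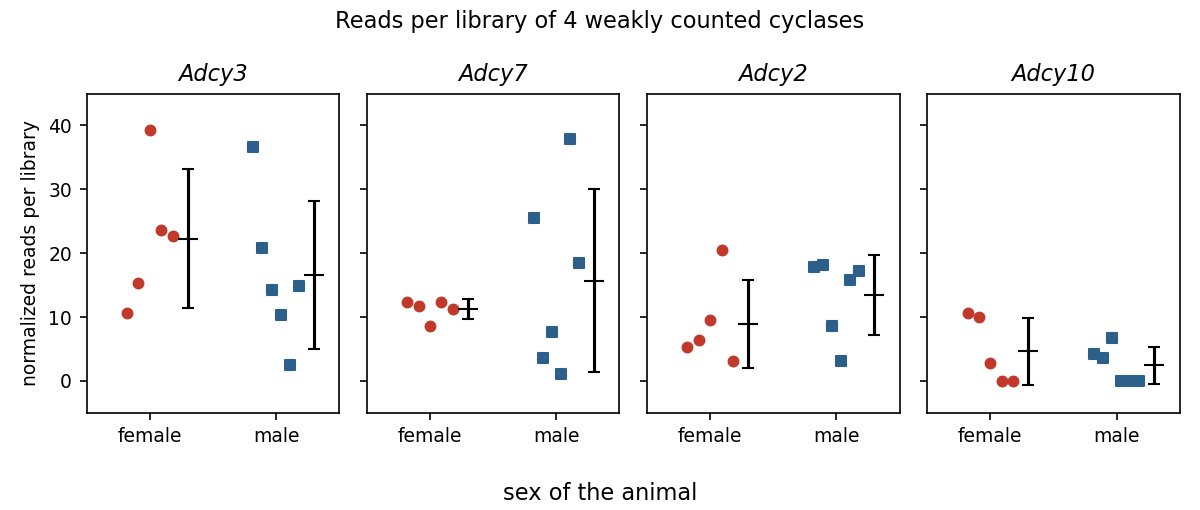
Normalized reads per library of Adcy3, Adcy7, Adcy2 and Adcy10, with circles for the 5 female libraries, squares for the 6 male libraries and bars for the mean ± SD, and with libraries drawn within each sex in order of falling size factor. The female libraries of Adcy7 sit between 8.61 and 12.3 while the male libraries spread from 1.03 to 37.8.

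The likeness of each recovered member to other genes was measured as Pearson's r of log2 normalized reads plus 1 over the 11 libraries, among 898 genes with a mean of at least 10. For Adcy3 the 3 highest were Mir664-2 (r = 0.908, rho = 0.873), B3gnt8 (r = 0.882, rho = 0.80) and F5 (r = 0.877, rho = 0.773). Without the 2 libraries farthest from the Adcy3 median, r was 0.808 for Mir664-2, 0.478 for B3gnt8 and 0.493 for F5. For Adcy7 they were Slc29a3 (r = 0.900, rho = 0.718), Fibin (r = 0.893, rho = 0.727) and Mat1a (r = 0.867, rho = 0.582). Without the 2 libraries farthest from the Adcy7 median, r was 0.759 for Slc29a3, 0.692 for Fibin and 0.612 for Mat1a. These are the highest of many values, all from the same libraries, and are given as a description.

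Of the 4 cyclases outside the 6 genes, 0 passed the threshold, and 0 had an unadjusted p under 0.05 (DESeq). Adcy1, a calmodulin-stimulated isoform best known from the brain, had more reads than Adcy4, with means of 316 in females and 364 in males per the authors' deposited table. Its log2 fold change was -0.20 with an adjusted p of 0.480 by the authors' deposited table (DESeq), and the approximate 95% interval of its fold ran from 0.695 to 1.09. Over all 9 cyclase rows it took 2.29% of reads in females and 3.57% in males, while Adcy5 took 66.1% in females and 66.4% in males. Adcy6 had 13.1 times the reads of Adcy1 in females and 7.94 times in males.

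Adcy2, a beta-gamma-stimulated isoform known from brain, was counted at 8.97 ± 6.89 normalized reads in females (SD, n = 5) and 13.5 ± 6.21 in males (SD, n = 6), with an exact permutation p = 0.290 (two-sided). Single libraries held from 3 to 21 reads, and the sexes overlapped. Adcy10, the soluble cyclase, had 12, 11 and 3 reads in 3 female libraries and 5, 4 and 7 in 3 male libraries, and 0 in the other 5 libraries. Its mean was 4.68 ± 5.24 in females (SD, n = 5) and 2.42 ± 2.84 in males (SD, n = 6), with an exact permutation p = 0.437 (two-sided). Adcy8 had 2 reads in 1 female library and was listed at 0 in males, where a count of 0 allows up to 3 reads over the group, so no fold is given.

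The other genes of cyclic AMP signalling were described by 6 lists, with 111 measured genes in all. Of these, 7 were called higher in females and 13 lower, which is 6.31% and 11.7%, beside 6.71% and 7.76% of all genes. Their median log2 fold change was -0.03, beside -0.01 for all genes and 0.43 for the 5 cyclase members. The lists were not tested as sets, and the counts of each list below are to be read beside the 6.71% and 7.76% of all genes.

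Upstream of the cyclases, 1 of 16 measured receptors that couple to cyclase was called higher and 2 were called lower. Of all genes, 6.71% were called higher and 7.76% lower, and counts this small do not separate the list from these shares. The median log2 fold change of the list was 0.20. Adrb1, the main beta-adrenergic receptor of the myocyte, was higher, with means of 196 in females and 117 in males and an adjusted p of 0.0248 per the authors' deposited table (DESeq). Calcrl, the calcitonin receptor-like receptor, was lower, with means of 294 in females and 600 in males per the authors' deposited table. The glucagon receptor Gcgr was also lower, at 352 in females and 511 in males by the authors' deposited table. Adrb3, Glp1r and Ptger2 were listed at 0.

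Of 20 measured G protein subunits, 0 were higher and 4 were lower, beside 6.71% higher and 7.76% lower of all genes. Their median log2 fold change was -0.07. At an unadjusted p under 0.05 (DESeq), 1 was higher and 5 were lower. Gnas, the stimulatory alpha subunit that activates all membrane cyclases, had a log2 fold change of -0.01, with means of 13986 in females and 14080 in males per the authors' deposited table. Gnai2, an inhibitory alpha subunit, had means of 5778 in females and 5888 in males by the authors' deposited table. The inhibitory subunits Gnai3 and Gnai1 were lower, at 713 and 77.1 in females, against 1539 and 149 in males, per the authors' deposited table. Gnai3 had a log2 fold change of -1.11 (adjusted p 0.0017) and Gnai1 one of -0.95 (adjusted p 0.0088) by the authors' deposited table (DESeq). The gamma subunits Gng12 and Gng10 were lower, with log2 fold changes of -0.74 and -0.79 per the authors' deposited table.

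Of 28 measured regulators and partners of the cyclases, 1 was higher and 3 were lower, with a median log2 fold change of -0.19. Prkca, a protein kinase C, had a log2 fold change of -0.54, and the calcineurin catalytic subunits Ppp3ca and Ppp3cb had -0.62 and -0.39, all by the authors' deposited table. For Ppp3cb the adjusted p was 0.0499 per the authors' deposited table (DESeq). Nos3, the endothelial nitric oxide synthase, was 1.48-fold higher by the authors' deposited table.

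Downstream, 1 of 14 measured effectors of cyclic AMP was higher and 2 were lower. The regulatory subunits of protein kinase A, Prkar1a and Prkar2a, were lower, with log2 fold changes of -0.42 and -0.49 per the authors' deposited table. Rapgef3, the exchange factor Epac1 that cyclic AMP opens directly, was 1.56-fold higher by the authors' deposited table. The median log2 fold change of the list was -0.20. With p adjusted over genes with a mean of 10 or more, 4 were called lower.

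Among 18 phosphodiesterases and export pumps, which remove cyclic AMP, 1 was higher and 1 was lower, with a median log2 fold change of -0.01. Pde4a was 1.6-fold higher, with means of 564 in females and 353 in males per the authors' deposited table. Pde11a was lower, with means of 9.51 in females and 41.1 in males by the authors' deposited table. With p adjusted over genes with a mean of 50 or more, which leaves out Pde11a, 0 of the list were called lower.

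Of 15 measured genes whose products protein kinase A phosphorylates or regulates in myocytes, 3 were higher and 1 was lower, with a median log2 fold change of 0.24. Among them, phospholemman Fxyd1 was 1.38-fold and the ryanodine receptor Ryr2 1.30-fold higher by the authors' deposited table. The transcription factor Creb1 had a log2 fold change of -0.57 per the authors' deposited table.

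**Figure D4:**
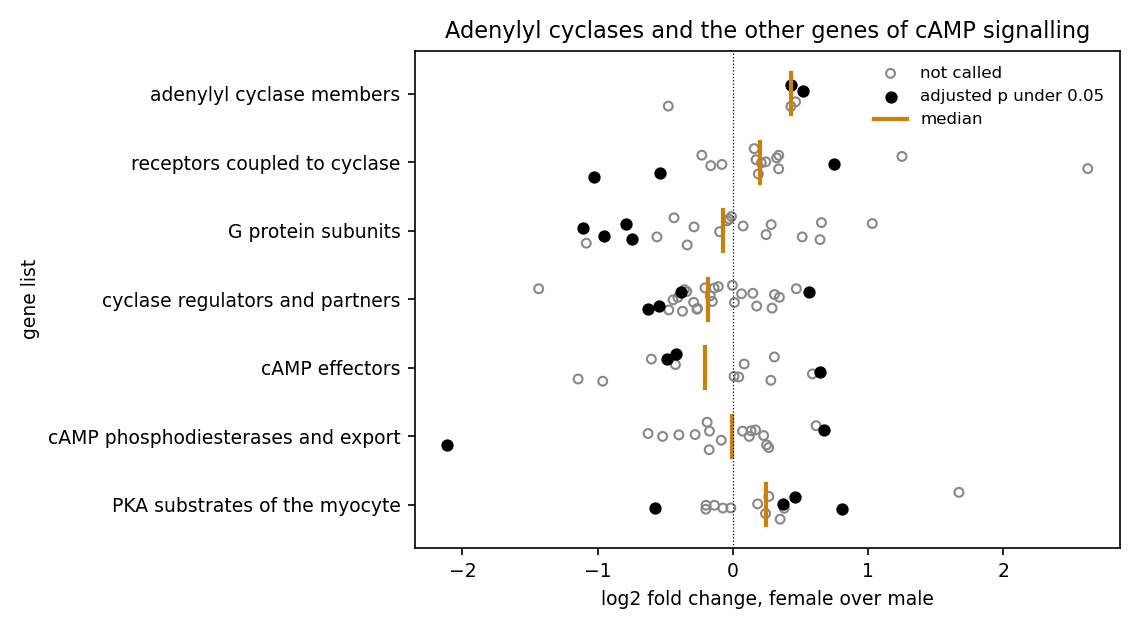
Log2 fold change, female over male, of the 5 measured cyclase members (top) and of 6 lists of cyclic AMP signalling genes, 1 point per gene, filled where the adjusted p was under 0.05. Points are shifted up and down within a list only to part them, vertical bars are medians over all measured genes, and Cnga1, listed at 0 in females, is not drawn. The 2 called cyclases lie right of 0 at 0.43 and 0.52, while the 4 called G protein subunits lie left of 0.

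Myocyte markers and those of other cells are given beside the called isoforms. Of all genes, 6.71% were called higher in females and 7.76% lower. At a mean of 2000 or more, these shares were 12.9% and 15.6%. The 11 cardiomyocyte markers summed to 4816216 in females and 4083675 in males, a ratio of 1.18, and 2 were called higher, among them Myh6 at 1.6-fold by the authors' deposited table. Myh6 had the highest mean of the 11 and weighs most in that ratio. The median log2 fold change of the list was 0.14, with 8 of the 11 positive. Myh7, Tnnt2 and Pln had negative values per the authors' deposited table. Actc1, the cardiac actin, had means of 693485 in females and 631497 in males per the authors' deposited table. The 9 measured fibroblast markers summed to 10126 in females and 19418 in males, a ratio of 0.521, with 3 called lower. Col3a1, a fibrillar collagen, weighs most in that ratio, with means of 3915 in females and 10722 in males by the authors' deposited table. Dcn, a matrix proteoglycan, had 3902 in females and 5594 in males and was not called (adjusted p 0.524, DESeq) per the authors' deposited table. Of the 9, 2 had a positive log2 fold change, Fbln1 (0.59) and Tcf21 (0.17), by the authors' deposited table. Col1a2 was listed at 0. The 9 smooth muscle and pericyte markers summed to 6184 in females and 5881 in males, with 0 called, and with 2 higher and 1 lower at an unadjusted p under 0.05 (DESeq). Their median log2 fold change was 0.32, with 8 of the 9 positive. Rgs5, which had a negative value, had means of 1924 in females and 2647 in males per the authors' deposited table. Cspg4 had 1302 in females and 876 in males per the authors' deposited table. The part of cell composition in the Adcy5 and Adcy6 differences was not tested.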

How the data were processed

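RNA was sequenced from myocytes of 5 female and 6 male rats. Per the labels, ribosomal RNA was removed from 650 ng of total RNA and stranded paired-end libraries were made. HTSeq 0.6.1, TopHat2 2.0.12, DESeq, Trimmomatic 0.32, FastQC and build rn6 are named per the submitters' processing notes; settings, annotation and strand use in counting are not given in the sources used here. Per the file headers, the authors deposited mean normalized signal (counts over size factors) for groups A and B, a fold change as a linear ratio, its log2 value, a p-value and an adjusted p-value. The overall mean weighted A by 6 and B by 5 in 13346 of 13346 genes (relative tolerance 1e-09), and by the exchanged weights in 0, so A was read as males and B as females. The deposited p adjusted over 13346 genes at 0.05 was the call.

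Size factors were read from genes with 1 read, and whole reads were searched for means up to 100 in females and 30 in males. A single solution came out for all 4487 genes searched in females and all 3242 in males. Of 2663 female and 1391 male values shifted slightly, 0.113% and 0% had a solution. On simulated data, reads were returned for 100% of 490 female and 490 male genes. Libraries are thus known by sex, not replicate number. Exact permutation tests and limma 3.58.1 (pseudocount 1, mean of at least 10, 899 genes) used these reads. The table holds no library totals. Members and lists were chosen with earlier results of these data known. The genes named are all cyclase rows, up to 5 called genes with the smallest p in each pathway list, Adrb1, Gnas, Gnai2 and Gnai3, the 2 highest means of each marker list, and the 3 genes most like each recovered member. Some genes that this rule names are left out. For the cardiomyocyte, endothelial and fibroblast markers, further genes were named after the values were seen. The tools were Python 3.11.15, scipy 1.17.1 and R 4.3.3.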

Additional observations from a re-analysis of the deposited data

Results flagged for a closer look

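For Adcy7, the lowest female library stood at 8.61 normalized reads, apart from the next at 11.3, a gap of 0.726 of the whole female range, which is itself narrow. For Adcy8, the highest female library stood at 1.81 normalized reads, from 2 reads, with the other 4 at 0. Of 9 groups of libraries looked at in this way, chance alone marks about 1 in 20.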

How the results depend on the processing

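Adcy5 and Adcy6 were called also when p was adjusted over genes with a mean of at least 10 or of at least 50. These settings leave the fold as it is. Both lowered the adjusted p (DESeq), to 0.0155 and 0.0137 for Adcy5 and to 0.0048 and 0.0043 for Adcy6. They were thus not a stricter test. At an adjusted p under 0.1, which can only add calls, 2 members were called. Scaling by the summed means of all genes raised every log2 fold change by 0.15, to 0.58 for Adcy5 and 0.67 for Adcy6, and the median of all genes to 0.14. Scaling without rows that carry an Ensembl identifier alone, which held 50.7% of summed means in females and 57.5% in males, lowered every log2 fold change by 0.06. No member changed sign under these scalings. The female minus male difference of Adcy7 was -4.42 normalized reads; it turned to 0.17 on the log2 scale, with the same 0.17 from limma, and leaving out 1 library in turn gave -7.35 to 0.0087, the last without 1 male library. For Adcy3 the range was 1.51 to 9.77, with exact permutation p from 0.119 to 0.810. Among the lists, cyclic AMP effectors called lower came to 4 with either filter on means, and phosphodiesterases called lower to 0 at a mean of at least 50, which leaves fewer genes tested; these counts were chosen after seeing the data. No paired analysis was possible because the columns carry group means and the recovered libraries carry no replicate number. Shares by coding length were not run, since no transcript or protein lengths were used here. Reads of the low cyclases limit what could be seen per library.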

Other observations

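The 42 reads of Adcy10 lay in the 6 libraries with the largest size factors, 3 of each sex, which were at least 1.045, and 0 lay in the other 5, which were at most 0.972. Of 2098 recovered genes with at least 20 reads, 30 had reads in those 6 libraries only and 4 in the other 5 only. This was noticed after the values were seen, and it was not tested.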
